A study of Mus musculus with 24 samples.

Results

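A set of 9 genes of resident and alternatively activated macrophages was described in mouse epididymal fat: Rnase2a, Retnla, Mrc1, Clec10a, Mgl2, Cd163, Lyve1, Csf1r and Cd14. They were taken by symbol, with every probe of the array annotated to them, which gave 12 of 45281 probes. The members were selected on measured intensities of these same arrays, with earlier results known and the comparison used not stated, so the members' differences between groups are given as a description without a test. All 9 members were among the 9836 genes that passed the filter on dim probes (8 or more arrays with a detection p below 0.05), and 11 of their 12 probes passed it. The probe left out is a second one for Cd163, detected on 1 of 24 arrays. No member entered through 1 group alone: Rnase2a was detected on 8 AL, 3 DR and 8 Rapa arrays, and each of the other members on all 24 through its brighter probe.

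The tissue came from male C57BL6/J mice aged 8 months. Some were fed ad libitum (AL), others were held on 40% dietary restriction (DR) and the rest received rapamycin, an inhibitor of the mTOR kinase, at 14 ppm (Rapa), in each case from 2 months of age for 6 months. Each group has 8 arrays, and all 3 groups share the strain, sex and age. Nothing in the labels states that each sample is a separate animal, so p-values measure only the spread between these samples. The source field and the design name epididymal fat, whereas the tissue and extraction fields say liver. The array values bear on this point, since the adipocyte hormone genes Adipoq and Lep were detected on all 24 arrays, with means in AL of 13.66 and 14.82, and the hepatocyte genes Alb and Fgb on 0 of 24. Of 12 hepatocyte markers 5 were detected on no array, 2 passed the filter on dim probes and 0 were detected on all 24. Of 6 Kupffer cell markers Clec4f and Cd5l were detected on none, while Vsig4 and Slc40a1, which other macrophages also express, were detected on all 24.

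Macrophages of fat depend on the receptor encoded by Csf1r, which binds the ligands CSF1 and IL-34. Under the type 2 cytokines IL-4 and IL-13, acting through the transcription factor STAT6, macrophages take up an alternatively activated state and make the mannose receptor, galactose-binding lectins and secreted proteins such as RELM-alpha. Resident tissue macrophages are in addition known for scavenger and hyaluronan receptors and for clearing dead cells and debris.

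Promoter sequences are shown for 4 members, genes of the secreted proteins and the lectins, whose values are given first below. Each run is the 250 bases before the start of the gene on its own strand, from RefSeq on build GRCm38.p6, and capitals mark matches to the motifs named after the sequences. Promoter entries were used for 5 of the 9 members.
Rnase2a, chr14:51256113-51256362, minus strand: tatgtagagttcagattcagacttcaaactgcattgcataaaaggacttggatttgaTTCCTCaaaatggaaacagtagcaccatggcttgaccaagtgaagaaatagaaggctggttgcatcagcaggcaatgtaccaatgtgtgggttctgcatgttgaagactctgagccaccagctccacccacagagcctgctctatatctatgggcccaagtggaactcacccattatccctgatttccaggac
Retnla, chr16:48842359-48842608, plus strand: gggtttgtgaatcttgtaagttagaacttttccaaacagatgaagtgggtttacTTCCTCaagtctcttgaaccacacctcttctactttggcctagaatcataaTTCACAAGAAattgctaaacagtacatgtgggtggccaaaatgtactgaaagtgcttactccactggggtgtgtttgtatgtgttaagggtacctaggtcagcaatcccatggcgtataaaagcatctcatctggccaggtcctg
Mrc1, chr2:14229164-14229413, plus strand: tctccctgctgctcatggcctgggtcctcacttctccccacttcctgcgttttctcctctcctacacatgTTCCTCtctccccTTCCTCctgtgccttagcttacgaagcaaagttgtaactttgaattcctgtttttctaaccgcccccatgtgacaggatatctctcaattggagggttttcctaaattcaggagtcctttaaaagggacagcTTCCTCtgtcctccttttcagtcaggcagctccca
Mgl2, chr11:70130107-70130356, plus strand: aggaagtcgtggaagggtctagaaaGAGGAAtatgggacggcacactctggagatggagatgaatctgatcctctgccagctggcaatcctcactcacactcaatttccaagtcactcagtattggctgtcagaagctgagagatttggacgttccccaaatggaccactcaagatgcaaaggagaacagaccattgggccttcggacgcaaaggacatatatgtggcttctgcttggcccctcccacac
The motifs searched on both strands were GAGGAA, the core bound by the macrophage factor PU.1, TTC and GAA with any 4 bases between them, the spacing that STAT6 prefers, and TTCNNNGAA, the spacing of other STAT factors. No match overlapped another. GAGGAA or its reverse complement occurred 3 times before Mrc1 and once each before Rnase2a, Retnla and Mgl2, and it was not found in the window of Cd163, on chr6:124304401-124304650. Of 32851 promoter windows of the same length, 23.3% hold it. The motif with 4 bases between TTC and GAA occurred in the Retnla window, from 145 to 136 bases before the start, and in none of the other 4 windows, against 5.85% of all windows. TTCNNNGAA was in none of the 5, against 7.02% of all windows. These matches describe letters in the window and say nothing of binding in this tissue.

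Values below are log2 intensities after background correction and quantile normalization, and a difference is that of 2 group means with the standard error of the fit (SE). Levels of different genes are not set against each other, because probes differ in how well they bind, and intervals describe the spread of a difference rather than test it for a member. The 75th percentile of the deposited intensity ranged from 15 to 112 over the 24 arrays, and between 13012 and 19203 probes were detected on an array. The dimmest and the brightest arrays followed the replicate number in all groups: numbers 1 and 5 gave 75th percentiles from 15 to 29.8, and numbers 2 and 6 from 73.7 to 112. Numbers 3 and 7 gave 32.6 to 80.7 and numbers 4 and 8 gave 42.7 to 66.9, so brightness does not separate those from each other. Replicate numbers 4 apart were grouped into 4 number classes of 6 arrays, a grouping made from the data that the labels do not describe. The median of epididymis and testis markers, genes of organs next to this fat pad, lay above 6 on 5 DR arrays (DR1, DR3, DR5, DR7 and DR8), 3 Rapa arrays (Rapa6, Rapa7 and Rapa8) and 0 AL arrays. Members' values are given with and without these 8 arrays, although only 3 DR arrays then remain.

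Across all genes, 11.7% were called between DR and AL (limma, adjusted p under 0.05), 0.153% between Rapa and AL and 11.4% between DR and Rapa. The shares called higher and lower in DR than in AL were 5.2% and 6.5%. In Rapa against AL they were 0% and 0.153%, and in DR against Rapa 5.88% and 5.54%. At an unadjusted p under 0.05, 945 genes differed between Rapa and AL. Beside those shares, 1 member was called higher and 1 lower in DR than in AL (Cd14 and Rnase2a), 0 were called between Rapa and AL, and 2 were called lower in DR than in Rapa (Rnase2a and Mrc1). Because the members were chosen with such differences known, nothing is read from these counts. The DR and Rapa comparisons with AL share the 8 AL arrays. The median difference over the members was -0.32 in DR against AL, 0.17 in Rapa against AL and -0.40 in DR against Rapa, whereas the medians over all genes were -0.00907, -0.00519 and -0.0109. Of the 9 members, 7 stood below 0 in DR against AL, 3 in Rapa against AL and 7 in DR against Rapa.

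**Figure D1:**
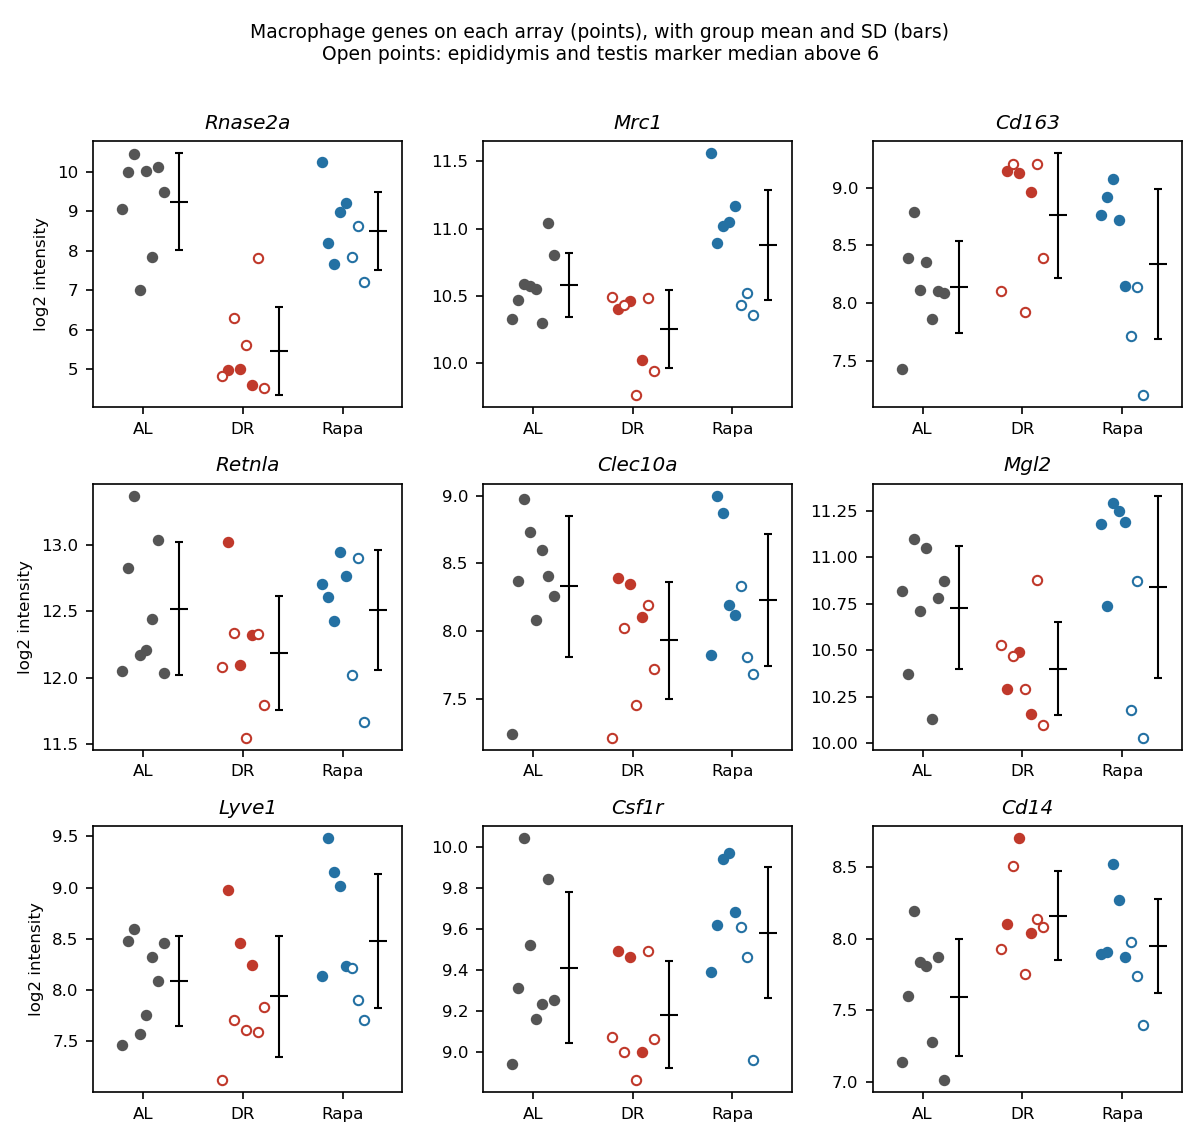
Log2 intensity of each macrophage gene (one panel a gene, y axis) on the 8 arrays of AL, DR and Rapa (x axis), with bars for the group mean and SD and open points for the 8 arrays whose epididymis and testis marker median exceeded 6. Rnase2a separates DR from the other groups except on DR7 at 7.82, while the groups overlap in the other 8 panels.

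Rnase2a, a secreted eosinophil-type ribonuclease also called Ear11 that mouse macrophages make, differed most. It lay between 7.00 and 10.46 in AL (median 9.74), between 4.54 and 7.82 in DR (median 4.99) and between 7.22 and 10.25 in Rapa (median 8.41). The DR arrays read 4.84, 4.98, 6.30, 5.00, 5.63, 4.61, 7.82 and 4.54 in the order of their replicate numbers. All DR arrays but DR7 lay below every AL array and every Rapa array, and AL and Rapa overlapped widely. The means of AL, DR and Rapa were 9.25 ± 1.22, 5.46 ± 1.11 and 8.50 ± 0.98 (SD, n = 8 each). DR was lower than AL by a log2 difference of -3.79 ± 0.50 (SE, 95% interval -4.82 to -2.75), or 13.8-fold, and lower than Rapa by -3.04 ± 0.50 (8.22-fold). Rapa differed from AL by -0.75 ± 0.50, with an interval from -1.78 to 0.29. Since 5 DR arrays did not detect the gene, the DR mean sits near the background and the fold is only roughly known. In this bulk tissue, fewer macrophages and less RNA per macrophage cannot be told apart, for Rnase2a or for any other gene named here.

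The Rnase2a difference kept its sign in every number class. DR against AL gave -4.30, -4.13, -3.24 and -3.48 in the 4 classes, and DR against Rapa gave -4.50, -3.23, -1.09 and -3.34, the smallest in the class that holds DR7. Leaving out each array in turn gave -4.12 to -3.62 against AL and -3.38 to -2.79 against Rapa. Without the 8 arrays high in epididymis and testis markers the values were -4.39 and -4.00, and Rapa against AL was -0.39. The paralogue Rnase2b was at background, detected on 2 of 24 arrays. On the reference assembly Ear14 is the protein-coding neighbour of Rnase2a with 0 genes between them, and 2 such genes separate Rnase2a from Rnase2b. Among other ribonucleases of the EAR and angiogenin family, 4 of 10 genes on the array passed the filter and 2 of these were called lower in DR than in AL, with a list median of -0.61. Ear3 fell from 10.93 ± 0.49 in AL to 10.04 ± 0.36 in DR (log2 difference -0.89 ± 0.24, limma adjusted p = 0.014), and 5 of its 8 DR arrays were below all AL arrays. Ear10 fell by 0.91 ± 0.29 (limma adjusted p = 0.0443), a call lost in 12 of 24 fits that left out 1 array (any of AL2, AL3, AL4, AL6, AL7, AL8, DR1, DR3, DR5, DR6, DR7 or DR8). Rnase4, a ribonuclease made in many tissues, stood at 0.07 ± 0.26. Neither Ear3 nor Ear10 was called without the 8 arrays, where the list median was -0.46, or under median scaling, where it was -0.89. Family members are close in sequence, and which transcripts each probe binds was not checked here.

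Most markers of eosinophils, for which this ribonuclease family is named, lay near background in these samples. Of 8 eosinophil markers 2 passed the filter and 0 were called in any comparison (limma). Ccr3, the eotaxin receptor, and Il5ra, the receptor for IL-5, were detected on 0 of 24 arrays, Siglecf on 2 and the peroxidase gene Epx on 4. Prg2 passed the filter and was detected on 12 of 24 arrays, 4 in AL, 2 in DR and 6 in Rapa. Its DR difference was -0.25 ± 0.22 against AL and -0.51 ± 0.22 against Rapa. Ccl11, which encodes eotaxin and is made by stromal cells as well, had a mean of 10.83 in AL and 10.75 in DR. The part of eosinophils in the Rnase2a values was not tested.

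Retnla encodes RELM-alpha, a secreted protein that mouse macrophages and adipose tissue make under IL-4. Its values lay between 12.04 and 13.37 in AL (median 12.33), between 11.55 and 13.02 in DR (median 12.21) and between 11.67 and 12.95 in Rapa (median 12.66). The 3 groups overlapped, with 2 DR arrays below every AL array. The means were 12.52 ± 0.50, 12.19 ± 0.43 and 12.51 ± 0.45 (SD, n = 8 each), so that DR stood at -0.33 ± 0.22 (SE) against AL and Rapa at -0.01 ± 0.22. Those differences were -0.04 and 0.18 without the 8 arrays. The related hormone gene Retn, resistin, stood at 0.10 ± 0.27 in DR against AL and -0.53 ± 0.27 in Rapa against AL and was not called (limma adjusted p = 0.877 and 0.561). Retnlb was detected on 0 arrays.

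Each of the 3 lectin genes had its lowest group mean in DR. Mrc1 encodes the mannose receptor CD206, an endocytic lectin used to mark alternatively activated macrophages. It lay between 10.30 and 11.04 in AL (median 10.56), between 9.76 and 10.49 in DR (median 10.42) and between 10.36 and 11.56 in Rapa (median 10.96). The highest DR array therefore lay within the lower part of both other groups, and 3 of 8 DR arrays lay below every AL array. The means were 10.58 ± 0.24, 10.25 ± 0.29 and 10.88 ± 0.41 (SD, n = 8 each). DR was lower than Rapa by -0.63 ± 0.17 (SE, 95% interval -0.97 to -0.28), or 1.54-fold, and stood at -0.33 ± 0.17 against AL, with an interval from -0.68 to 0.02. In order Rapa came first, then AL, then DR, and the ranges of 1 SD around neighbouring means overlap. DR was below Rapa in all 4 number classes, by -1.24, -0.45, -0.31 and -0.50, and without the 8 arrays by -0.84, where DR stood at -0.28 and Rapa at 0.56 against AL. With the epididymis and testis marker median as a covariate, the DR difference of Mrc1 was smaller, at -0.11 against AL and -0.50 against Rapa.

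Clec10a and Mgl2 encode the galactose-binding lectins CD301a and CD301b and are next to each other on the assembly, with 0 protein-coding genes between them. Clec10a lay between 7.24 and 8.98 in AL (median 8.39), between 7.21 and 8.39 in DR (median 8.06) and between 7.68 and 9.0 in Rapa (median 8.15). DR stood at -0.40 ± 0.23 against AL and -0.30 ± 0.23 against Rapa (SE), and Rapa at -0.11 ± 0.23 against AL. With the 8 arrays left out these were -0.05, -0.12 and 0.07, so most of the lower DR mean of Clec10a was not seen in the remaining arrays, and DR against AL was -0.03 with the marker median as a covariate. The brighter probe of Mgl2 lay between 10.13 and 11.10 in AL (median 10.80), between 10.10 and 10.88 in DR (median 10.38) and between 10.03 and 11.29 in Rapa (median 11.03). Its DR difference was -0.32 ± 0.19 against AL and -0.44 ± 0.19 against Rapa, the latter with an interval from -0.83 to -0.06. The low end of Rapa was made by Rapa8 at 10.03 and Rapa6 at 10.18, both among the 8 arrays, and without the 8 arrays the difference from Rapa was -0.82, that of DR from AL -0.41 and that of Rapa from AL 0.41. With the marker median as a covariate, the DR difference of this probe was smaller, at -0.07 against AL and -0.30 against Rapa. The dimmer Mgl2 probe put DR at -0.60 ± 0.29 relative to AL and Rapa at -0.25 ± 0.29, where the brighter one put Rapa at 0.12 ± 0.19, so the probes differ in sign for rapamycin.

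Cd163 and Lyve1, both surface receptors of resident macrophages, had DR placed differently. Cd163 encodes the scavenger receptor for haemoglobin bound to haptoglobin. It lay between 7.43 and 8.79 in AL (median 8.10), between 7.92 and 9.21 in DR (median 9.05) and between 7.20 and 9.08 in Rapa (median 8.44). Of the DR arrays, 5 of 8 lay above every AL array, and the lowest DR arrays were DR5 at 7.92 and DR1 at 8.10, which carry the highest epididymis and testis marker medians of DR (9.22 and 9.33). DR5 and DR1 were also the dimmest DR arrays, with 75th percentiles of 17.5 and 19.1. DR3 and DR7, with marker medians of 8.77 and 7.20 that also exceed the limit, shared the highest DR value of 9.21. The means were 8.14 ± 0.40, 8.76 ± 0.54 and 8.34 ± 0.65 (SD, n = 8 each). DR stood above AL by 0.62 ± 0.26 (SE, 95% interval 0.09 to 1.15, 1.54-fold) and above Rapa by 0.43 ± 0.26. Without the 8 arrays DR stood above AL by 0.94 and above Rapa by 0.36, and Rapa above AL by 0.58. With the marker median as a covariate DR stood above AL by 1.20. Lyve1, the hyaluronan receptor of perivascular macrophages and of lymphatic vessels, lay between 7.46 and 8.60 in AL (median 8.21), between 7.12 and 8.98 in DR (median 7.77) and between 7.71 and 9.48 in Rapa (median 8.23). Relative to AL, DR stood at -0.15 ± 0.27 and Rapa at 0.39 ± 0.27, and DR relative to Rapa at -0.54 ± 0.27 (SE). Once the 8 arrays were left out these were 0.47, 0.71 and -0.24, so DR against AL changed sign. Lymphatic endothelial markers had a list median of 0.15 in DR against AL and 0.51 in Rapa against AL, with 0 of 5 tested genes called in either. In DR against Rapa the list median was -0.40, all 5 estimates were below 0, and Thy1 was called lower (-0.62 ± 0.18, limma adjusted p = 0.0276). That call was lost without any 1 of DR1, DR7, DR8, Rapa4 or Rapa5. Without the 8 arrays 0 were called between DR and Rapa, and the list median was 0.38. Of that list Pdpn, podoplanin, had means of 9.87 in AL, 10.02 in DR and 10.37 in Rapa, and Prox1 was detected on 1 of 24 arrays. The part of lymphatic cells in the Lyve1 values was not tested.

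Csf1r and Cd14 are signalling receptors of the monocyte and macrophage lineage. The brighter Csf1r probe lay between 8.94 and 10.04 in AL (median 9.28), between 8.86 and 9.49 in DR (median 9.07) and between 8.96 and 9.97 in Rapa (median 9.61). DR stood at -0.23 ± 0.17 against AL and -0.40 ± 0.17 against Rapa (SE, interval for the latter -0.74 to -0.06), and Rapa at 0.17 ± 0.17 against AL. These values were -0.10, -0.41 and 0.31 without the 8 arrays. The dimmer Csf1r probe gave -0.53 ± 0.27, -0.41 ± 0.27 and -0.12 ± 0.27 in that order, with DR lowest again and Rapa against AL of the opposite sign. Cd14 encodes the co-receptor that passes lipopolysaccharide to TLR4. It lay between 7.01 and 8.19 in AL (median 7.71), between 7.75 and 8.70 in DR (median 8.09) and between 7.40 and 8.52 in Rapa (median 7.90). No DR array was below 7.75, while 3 AL arrays (AL1, AL6 and AL8) read between 7.01 and 7.28, and 2 of 8 DR arrays exceeded every AL array. The means were 7.59 ± 0.41, 8.16 ± 0.31 and 7.95 ± 0.33 (SD, n = 8 each), and DR stood above AL by 0.56 ± 0.18 (SE, 95% interval 0.19 to 0.93, 1.48-fold). Rapa stood above AL by 0.36 ± 0.18, with an interval from -0.01 to 0.73. The Cd14 value was above 0 in all 4 number classes (0.37, 0.63, 0.29 and 0.97), and its place among the called genes was lost in 11 of 24 fits that left out 1 array (AL1, AL2, AL6, AL8, DR2, DR3, DR4, DR6, DR7, DR8 or Rapa2). Its difference without the 8 arrays was 0.69, and it was not called there, while Rapa stood above AL by 0.50 and DR above Rapa by 0.19.

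**Figure D2:**
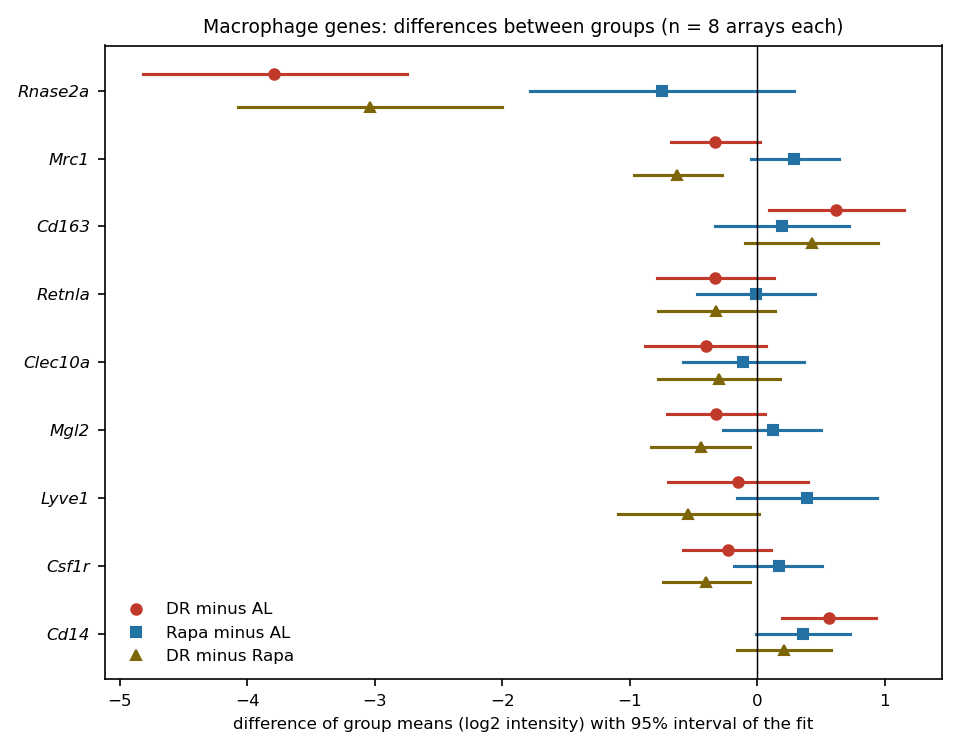
Differences of group means in log2 intensity (x axis) for each macrophage gene (y axis), with 95% intervals of the fit and 8 arrays a group. Rnase2a stands at -3.79 in DR minus AL and -3.04 in DR minus Rapa, and the other genes lie between -0.63 and 0.62 in all 3 comparisons.

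The placement of Cd163 and Cd14 above 0 held under median scaling of the arrays in place of quantile normalization, at 0.26 and 0.19 in DR against AL, although that scaling moved the median of all genes to -0.28. In Rapa against AL median scaling moved that median to -0.21, and Cd163 (-0.08), Csf1r (-0.12) and Mgl2 (-0.18) moved below 0 along with it while staying above that median. With the epididymis and testis marker median as a covariate, Lyve1 (0.40), Retnla (0.03) and Csf1r (0.01) stood above 0 in DR against AL.

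The other macrophage genes, none of them members, were read from lists chosen for their known roles, with earlier results of these data known. The adjusted p-values of list genes, here and elsewhere, do not allow for that choice. Of 18 tested pan-macrophage markers, 6 fell and 1 rose in DR against AL, and 17 of 18 estimates were below 0, with a median of -0.58. Against Rapa 7 were lower in DR and 1 higher (median -0.60), whereas 0 differed between Rapa and AL (median 0.09). Cd84, a SLAM-family adhesion receptor of leukocytes, fell from 8.50 ± 0.55 in AL to 7.05 ± 0.57 in DR (log2 difference -1.46 ± 0.27, limma adjusted p = 0.000739), and 6 of its 8 DR arrays were below all AL arrays. Fcer1g, the signalling chain shared by Fc receptors, fell by 0.84 ± 0.17 (limma adjusted p = 0.00135), and 7 of its 8 DR arrays were below all AL arrays. Laptm5, a lysosomal protein of leukocytes, fell by 0.68 ± 0.16 (limma adjusted p = 0.00588). The gene that rose was Mertk, the receptor with which macrophages engulf dying cells, from 7.86 ± 0.32 to 8.80 ± 0.29 (log2 difference 0.93 ± 0.17, limma adjusted p = 0.000503), and 6 of its 8 DR arrays were above all AL arrays. Lyz2, which encodes lysozyme, was lower in DR than in Rapa by -0.95 ± 0.22 (limma adjusted p = 0.0042) and stood at -0.64 ± 0.22 against AL (limma adjusted p = 0.0548). The median level of the 18 markers lay between 7.51 and 8.49 in AL, between 6.52 and 7.72 in DR and between 7.07 and 8.70 in Rapa. Without the 8 arrays 1 marker was lower and 1 higher in DR than in AL (median -0.55), and under median scaling 3 were lower and 0 higher (median -0.90).

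Other genes of resident and alternatively activated macrophages had a smaller median difference in DR than the pan-macrophage list, a contrast that was not tested. Of 19 tested, 3 fell and 0 rose in DR against AL (median -0.16), beside 6.5% lower and 5.2% higher over all genes. In Rapa against AL 0 were called (median 0.04). Against Rapa 3 were lower in DR (median -0.22), beside 5.54% lower over all genes. The 3 that fell were the chemokines Ccl6 (-0.97 ± 0.27, limma adjusted p = 0.0171) and Ccl9 (-0.78 ± 0.23, limma adjusted p = 0.0269) and Pltp, a phospholipid transfer protein (-0.87 ± 0.24, limma adjusted p = 0.0198). Ccl6 and Pltp each had 6 of 8 DR arrays below every AL array, and Ccl9 had 3, its call being lost in fits without any 1 of AL2, AL3, AL7, AL8, DR1, DR6 or DR8. Fcgrt, the neonatal Fc receptor, stood at 0.17 ± 0.17. None of the 3 was called without the 8 arrays, where the list median was -0.03, nor under median scaling, where it was -0.39. Vsig4, a complement receptor of resident macrophages listed with the Kupffer cell markers, was higher in DR than in Rapa (0.87 ± 0.23, limma adjusted p = 0.0147) and stood at 0.67 ± 0.23 against AL (limma adjusted p = 0.0643).

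Ligands and signalling genes upstream of the members are given next. Of 14 tested genes of CSF1 receptor and type 2 cytokine signalling, 1 fell and 0 rose in DR against AL (median -0.14), beside the 11.7% called over all genes, 0 were called in Rapa against AL (median -0.07), and 2 were higher and 1 lower in DR than in Rapa (median -0.19). The ligand genes Csf1 and Il34 stood at -0.12 ± 0.16 and -0.28 ± 0.22 in DR against AL, and Stat6 at -0.16 ± 0.20. The transcripts of IL-4 and IL-10 did not pass the filter, with Il4 detected on 6 of 24 arrays and Il10 on 0. The gene that fell was Csf2ra, the receptor chain for GM-CSF, at -0.98 ± 0.25 (limma adjusted p = 0.0108), and it was also the lower gene in DR against Rapa (-0.78 ± 0.25, limma adjusted p = 0.0445, lost in 13 of 24 fits that left out 1 array: AL2, AL4, AL7, AL8, DR1, DR3, DR4, DR7, DR8, Rapa2, Rapa4, Rapa5 or Rapa6). With the 8 arrays left out 1 gene of the list was higher and 0 lower in DR than in AL (median 0.06), and 0 were called between DR and Rapa. Against Rapa, DR was higher in Jak1, a kinase of cytokine receptors (0.81 ± 0.16, limma adjusted p = 0.00147, 8 of 8 DR arrays above all Rapa arrays), and in Pparg, a nuclear receptor of adipocytes and alternatively activated macrophages (0.62 ± 0.20, limma adjusted p = 0.0407). The Pparg call was lost in 10 of 24 fits that left out 1 array (DR1, DR2, DR4, DR6, DR7, DR8, Rapa3, Rapa5, Rapa6 or Rapa8).

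Partners of CD14 were called in both directions in DR against AL, the rise resting on 1 gene. Of 11 tested, 2 fell and 1 rose in DR against AL, with 6 of 11 estimates below 0 (median -0.04), and 0 were called in Rapa against AL (median 0.10). Against Rapa 2 were lower in DR and 0 higher (median -0.14). In DR against AL without the 8 arrays 2 fell and 0 rose (median -0.12). Under median scaling 1 fell and 0 rose (median -0.40). Lbp, the plasma protein that hands lipopolysaccharide to CD14, fell from 9.71 ± 0.60 to 7.63 ± 0.65 (log2 difference -2.08 ± 0.30, limma adjusted p = 3.85e-05), and 8 of its 8 DR arrays were below all AL arrays. Myd88, the adaptor of toll-like receptors, fell by 0.46 ± 0.13 (limma adjusted p = 0.0187), and Nfkbia, the NF-kappaB inhibitor that NF-kappaB itself induces, rose by 0.64 ± 0.19 (limma adjusted p = 0.0337), and 7 of its 8 DR arrays were above all AL arrays. The Nfkbia call was lost without any 1 of AL2, AL4, AL7, AL8, DR3, DR6 or DR7. Tlr4 stood at 0.07 ± 0.18 and Ly96, which encodes its partner MD-2, at -0.30 ± 0.19.

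Genes of other macrophage states and of other cells are given beside these values. Of 9 tested lipid-laden macrophage genes, 4 fell and 0 rose in DR against AL (median -0.89) and 0 were called in Rapa against AL (median 0.04), and 3 were lower in DR than in AL without the 8 arrays (median -0.52). Mmp12, the macrophage elastase, fell from 8.42 ± 0.97 to 5.02 ± 0.62, a log2 difference of -3.40 ± 0.41 (limma adjusted p = 3.08e-06), and was detected on 2 of 8 DR arrays, so that its DR mean sits near the background and the size of the fall is only roughly known. Gpnmb, a lysosomal glycoprotein of lipid-laden cells, fell by 2.38 ± 0.49 (limma adjusted p = 0.00162), and Trem2, a lipid-sensing receptor, by 1.52 ± 0.30 (limma adjusted p = 0.00104). Of 6 tested classical activation genes, Cd40, a co-stimulatory receptor, fell in DR against AL (-0.73 ± 0.22, limma adjusted p = 0.0327), a call lost without any 1 of AL4, AL5, AL7, AL8, DR2, DR5 or DR8, and Nos2 was detected on 2 of 24 arrays. Of 5 tested neutrophil and monocyte markers, 1 was called lower and 0 higher in DR than in AL. Their median was -0.33, with 3 of 5 estimates below 0. The called gene was S100a8, a calcium-binding protein, at -2.34 ± 0.39 (limma adjusted p = 0.000206). Lcn2 stood at 1.04 ± 0.85, Chil1 at 0.12 ± 0.21, Plac8 at -0.34 ± 0.60 and Csf3r at -0.33 ± 0.20. Of that list Lcn2 was detected on 24 arrays, Plac8 on 23, Chil1 on 10, Csf3r on 8, S100a9 on 3 and Camp and Mpo on 0. Among 7 tested dendritic cell markers 1 fell in DR against AL, H2-DMb2, a chaperone of antigen loading (-1.04 ± 0.26, limma adjusted p = 0.0105), and Xcr1 and Ccr7 were detected on 0 arrays. Mast cell (6 tested) and lymphocyte (4 tested) markers had 0 called genes in all 3 comparisons, with medians of -0.46 and -0.10 in DR against AL. Mesothelial markers rose in 3 of 7 in DR against AL, with a median of 0.52, in 1 without the 8 arrays and in 0 under median scaling. Of these 3, Bnc1 and Upk1b both lost their call without any 1 of AL1, AL2, AL4, DR3, DR4 or DR7. Epididymis and testis markers rose in 4 of 10 in DR against AL, with a median of 2.78, and their median level lay between 4.61 and 5.81 in AL, between 5.13 and 9.33 in DR and between 4.65 and 9.81 in Rapa, with none of the 10 tested genes detected on all arrays. Without the 8 arrays, which these same markers chose, 0 rose (median 0.48), and under median scaling 1 rose. Of 24 fits that left out 1 array, Defb20 was called in 24, Wfdc10 in 22, Adam7 in 20 and Spag11b in 14. The part of these cells in the members' values was not tested.

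**Figure D3:**
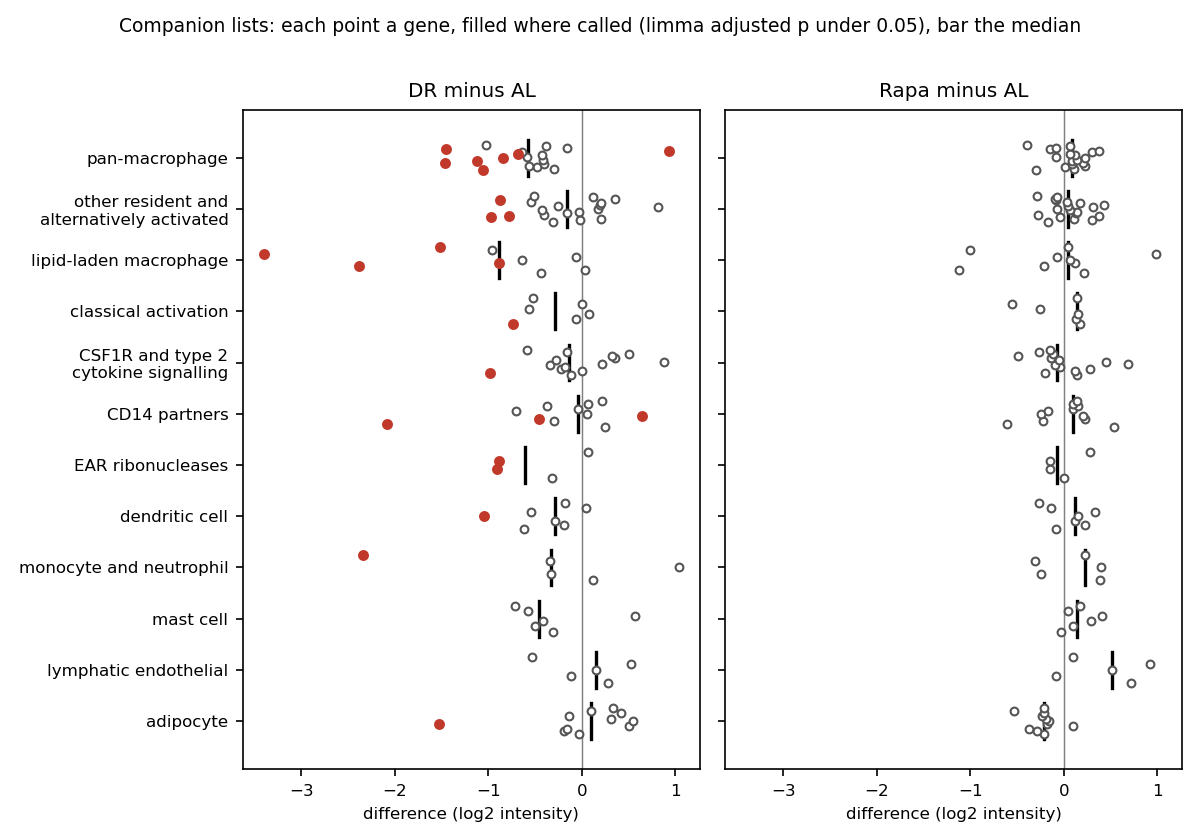
Log2 differences (x axis) of the tested genes in 12 companion lists (y axis) for DR minus AL and Rapa minus AL, each point a gene, filled where called by limma at an adjusted p under 0.05, with a bar at the list median. In DR minus AL the pan-macrophage and lipid-laden lists have medians of -0.58 and -0.89 and the other resident list -0.16, while no gene of these lists is filled in Rapa minus AL.

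Relations between arrays of the same group use no difference between group means and were tested, although whether they were known when the members were chosen is not stated. After group means were removed, 34 of the 36 pairs of members correlated positively over the 24 arrays, with a median Pearson r of 0.50, and 21 passed a two-sided permutation test (100000 permutations within groups, adjusted p under 0.05 over the 36 pairs), all with a positive r. By Spearman's rho 18 passed. Clec10a and Lyve1 gave r = 0.76 and rho = 0.73 (permutation test, adjusted p = 0.00126 and 0.00342), with r at 0.58 in AL, 0.80 in DR and 0.90 in Rapa. Leaving out the 2 arrays farthest from the Clec10a median left r at 0.72. Csf1r and Cd14 gave r = 0.75 and rho = 0.70 (permutation test, adjusted p = 0.00126 and 0.00477), with r at 0.78, 0.45 and 0.92 in the groups and 0.69 without the 2 farthest arrays. Cd163 correlated with Clec10a at r = 0.72 and with Cd14 at r = 0.71 (rho 0.71 and 0.72, permutation test, adjusted p = 0.00126 for both r). Mrc1 and Mgl2 gave r = 0.69 and rho = 0.67 (permutation test, adjusted p = 0.00252 and 0.0075), and 0.63 without the 2 farthest arrays. Rnase2a, the member with the widest range, correlated with Mgl2 at r = 0.59 and rho = 0.59 (permutation test, adjusted p = 0.00654 and 0.0111) and with Clec10a at r = -0.06 (adjusted p = 0.792).

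The number classes altered some of these relations. With class means removed as well, all 36 pairs were positive, the median r was 0.58 and 25 passed the same test. Within the classes of 6 arrays r of Clec10a with Lyve1 was 0.78, 0.80, 0.89 and 0.39, that of Csf1r with Cd14 was 0.45, 0.46, 0.55 and 0.87, and that of Mrc1 with Mgl2 was 0.79, 0.89, 0.15 and 0.93. For Cd163 within the classes r was 0.60, 0.62, 0.91 and 0.78 with Clec10a and 0.85, 0.15, 0.75 and 0.74 with Cd14. Clec10a and Mgl2, the neighbouring lectin genes, gave r = 0.09 in all arrays (rho 0.05, permutation test, adjusted p = 0.734), but 0.54, 0.65, 0.79 and 0.64 within the classes and 0.62 with class means removed (adjusted p = 0.00931). The 2 Mgl2 probes did not correlate with each other in all arrays (r = -0.01, rho 0.03), but did so at 0.82 with class means removed. Clec10a correlated with the dimmer Mgl2 probe at r = 0.71 and rho = 0.67 (permutation test, adjusted p = 0.0006 and 0.00267 over 3 pairs of probes). Rnase2a and Mgl2 within the classes gave 0.64, 0.33, 0.17 and 0.56, and with class means removed 0.42 (adjusted p = 0.0711), which does not pass.

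**Figure D4:**
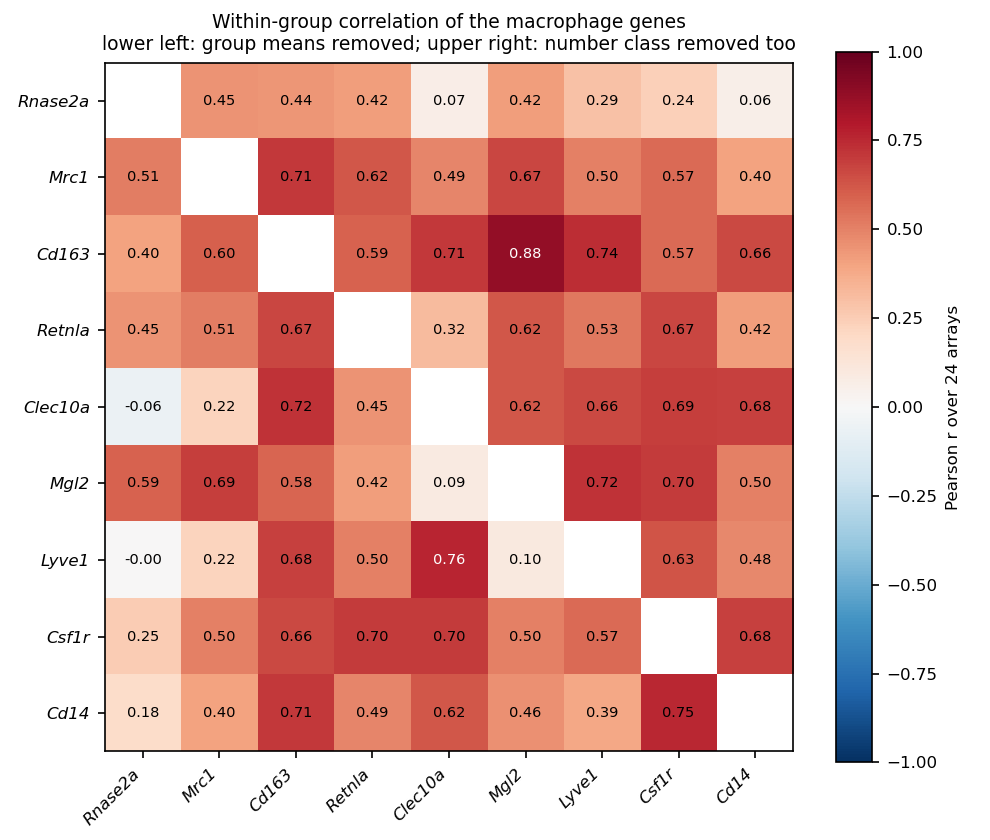
Pearson r between the macrophage genes over 24 arrays, with group means removed (lower left) and with number class means removed too (upper right). Clec10a against Mgl2 moves from 0.09 to 0.62, Lyve1 against Mgl2 from 0.10 to 0.72, and Rnase2a stays at or below 0.59 with every other gene.

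Deviations of the members also ran against the epididymis and testis markers. Within groups all 9 members correlated negatively with the marker median, with r from -0.74 to -0.11, and 5 of 9 passed the permutation test by r (adjusted over 27 relations with array-level scores). Of these, Cd163, Lyve1 and Clec10a also passed by rho. Retnla (rho -0.40) and Csf1r (rho -0.37) did not (permutation test, adjusted p = 0.103 and 0.116). Cd163 gave r = -0.74 and rho = -0.61 (permutation test, adjusted p = 0.00648 and 0.0207), -0.60 without the 2 farthest arrays and -0.82 with class means removed. Lyve1 gave r = -0.67 and rho = -0.67 (permutation test, adjusted p = 0.00898 and 0.0134), -0.57 without the 2 farthest arrays and -0.70 with class means removed. Rnase2a gave r = -0.11 and rho = -0.01 (permutation test, adjusted p = 0.603 and 0.962). Without the 8 arrays above the limit of 6, the median r between members was 0.36 over 16 arrays and 0 of 36 pairs passed by r or by rho, with fewer arrays behind each test. Clec10a with Lyve1 was then at 0.70, Csf1r with Cd14 at 0.76 and Mrc1 with Mgl2 at 0.44. With the median of the pan-macrophage markers all 9 members correlated positively, with r from 0.17 to 0.69, and 5 passed: Csf1r gave r = 0.69 and rho = 0.70 (permutation test, adjusted p = 0.00648 and 0.0134), 0.56 without the 2 farthest arrays, and Rnase2a gave r = 0.27 (adjusted p = 0.287). Mrc1 (r = 0.28) and Mgl2 (r = 0.17) did not pass. Without the 2 farthest arrays they were at -0.05 and -0.16, while the other members stayed positive. With class means removed Mrc1 and Mgl2 were at 0.51 and 0.56. With the 75th percentile of intensity, Clec10a correlated positively (r = 0.59, rho 0.59, adjusted p = 0.0149 and 0.0207) and Mgl2 negatively (r = -0.60, rho -0.62, adjusted p = 0.0149 and 0.0178), each by the permutation test, and with class means removed these were -0.11 and -0.37.

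**Figure D5:**
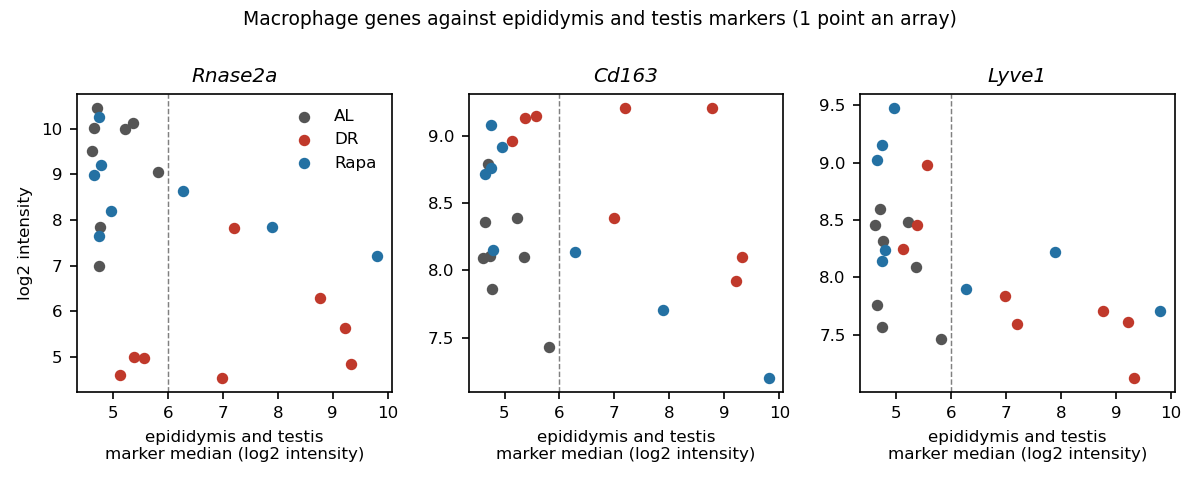
Log2 intensity of Rnase2a, Cd163 and Lyve1 (y axes) against the median of epididymis and testis markers (x axis), 1 point an array, with a dashed line at 6. Within groups r is -0.11 for Rnase2a, -0.74 for Cd163 and -0.67 for Lyve1.

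The genes whose pattern over the 24 arrays was most like that of each member were found by Pearson r, as a description without a test, in which group differences and number classes both take part. Rnase2a was most like Tubb2b (0.91, or 0.70 with group means removed) and Tsc22d2 (0.90 and 0.63). Mrc1 was most like Ncf4, a subunit of the phagocyte oxidase, and Vav1, a signalling protein of blood cells (0.86 for both, 0.77 and 0.79 with group means removed). Cd163 was most like Galnt15 (0.88) and Atp10d (0.85). Retnla was most like H2-Aa, a class II antigen-presenting molecule, and Galnt16 (0.79 for both). Clec10a was most like the lysozyme gene Lyz1 (0.89) and the mast cell chymase gene Cma2 (0.84), Mgl2 like Fam111a (0.89) and Rbms1 (0.88), and Lyve1 like Pf4 (0.77), a chemokine that resident macrophages make, and Pros1 (0.76), a ligand of MERTK. Csf1r was most like Prcp (0.84) and Aldh1a3 (0.83), and Cd14 like Gprc5b and Stn1 (0.71 for both).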

How the data were processed

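Total RNA of 24 samples (8 AL, 8 DR and 8 Rapa, grouped by their labels) was hybridised to an Illumina mouse BeadChip, 1 array a sample. Intensity and a detection p-value for each probe were deposited, per the file headers, and between 26.7% and 34.3% of an array's intensities lie below 0, so they were already background-subtracted. A deposited score is, by comparison with the intensities, a z-score within each array of log intensity plus a constant of an unknown log base, with no further scaling between arrays and column medians from -0.42 to -0.32, and was used only as an alternative. For scanner software and genome build: not given in the sources used here.

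Intensities were processed with limma 3.58.1 in R 4.3.3 by neqc (offset 16), which corrects background, quantile-normalizes and converts to the log2 scale. The 17165 probes whose detection p was below 0.05 on 8 or more arrays entered the fit. Of all probes 34885 have 1 symbol in the platform annotation, 18 have several and 10378 are not listed there. The brightest kept probe stood for its gene. All 24 arrays entered 1 fit of group means (21 residual degrees of freedom), with two-sided moderated tests and Benjamini-Hochberg adjustment over all kept probes. Array number limits the precision. The fit was tested on simulated data.

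The members and lists were chosen with earlier results of these data known. The rule for named genes takes all members, from each list and comparison up to 3 called genes with the smallest adjusted p and the brightest gene (up to 2 where none was called), and for likeness the 2 genes with the highest r. For lists of other cells only some of these are printed. Other genes named, such as markers at background, the gene symbols Adipoq, Csf1, Il34, Stat6, Tlr4 and Ly96, were named for their role, after their values were seen. Promoter windows are from RefSeq. The members' own differences carry no p.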

Additional observations from a re-analysis of the deposited data

Results flagged for a closer look

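In 8 of 192 combinations of a named gene and a group, 1 array stood far from the other 7 by Dixon's test at the 95% level, and chance flags about 1 in 20 such groups. None of the 8 is one of the 9 members. Cd84 on AL6 read 7.39, with the next AL array at 8.35, and Retn on AL6 read 7.05, with the next at 6.21. AL6 was also highest for the epididymal gene Wfdc10, at 7.39 against 5.63, and AL1 for Adam7, another epididymal gene, at 8.25 against 5.53. DR7, the DR array with the highest Rnase2a, was highest in DR for Mmp12, the macrophage elastase, at 6.41 against 5.19, and for Irf5, a transcription factor of inflammatory macrophages, at 7.64 against 7.10. DR5 was lowest in DR for the adipocyte gene Car3, at 13.78 against 14.17. Rapa7 was highest in Rapa for the epididymal gene Spag11b, at 6.49 against 5.35.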

How the results depend on the processing

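Rnase2a stayed below AL and below Rapa in DR under all alternatives run, and was among the called genes of both comparisons under each one except within number classes 1, 2 and 4 (against AL) and within all 4 classes (against Rapa), which hold 2 arrays a group. With 1 array left out, 912 to 1268 genes were called between DR and AL, 8 to 36 between Rapa and AL and 975 to 1217 between DR and Rapa, and the members called numbered 1 to 2, 0 to 0 and 2 to 3, Mgl2 joining without Rapa8. For DR against AL the count of 1150 (511 higher, 639 lower) became 576 (67 higher) under median scaling, 469 without the 8 arrays, 1804 with array weights, 1953 with the number class as a block (an alternative added after seeing the data), and 4, 15, 150 and 0 within the classes. The 2 members called became 1 (Rnase2a) under median scaling, with the authors' values, with no probe filter and with only the 2 groups, and 0, 0, 1 and 0 within the classes. Cd163 joined Rnase2a and Cd14 with array weights, with the marker covariate and with the replicate block, and took the place of Cd14 without the 8 arrays. In DR against Rapa, Mgl2 was also called without the 8 arrays, with the replicate block and with the number class as a block, and Cd163 with the marker covariate. For Rapa against AL the count of 15 became 3 under median scaling, 8 with no filter, 23 without the 8 arrays, 48 with array weights, 29 with the mean of a gene's probes, 154 with the number class as a block, and 0, 0, 2 and 0 within the classes. For DR against Rapa the count of 1123 became 282 (39.7% higher) under median scaling, which left 1 member called, 706 without the 8 arrays, 1887 with the number class as a block, and 4, 61, 23 and 0 within the classes, where 0, 0, 0 and 0 members were called. The 21 relations between members became 0 without the 8 arrays. Defb20, an epididymal gene, reversed in DR against Rapa to -0.23 and -0.09 within classes 2 and 4. The cause of these changes was not tested, beyond the fewer arrays of the class fits. Slide as a block was not run, since the file headers give no slide.

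With replicate number as a replicate block, 1886, 121 and 1765 genes were called in the 3 comparisons. Same-numbered arrays of different groups deviated from their group means with r from -0.07 to 0.55 (median 0.23), and 5 of 24 pairs lay at or below 0.1. Outside their group, 9 of 24 arrays correlated best with an array of their own number. The labels name no pairing, so the numbers are not taken to pair the samples. Arrays that share a number class but not a number gave r from -0.42 to 0.63 (median 0.14). Of these 36 pairs, 11 lay at or below 0.1. Pairs from different classes had a median r of -0.11. Among all other arrays, with their own group and number included, 17 of 24 correlated best with an array of their own class. The counts of 9 and 17 are therefore not on 1 scale. Whether equal numbers share more than their class was not tested.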
